A study of Homo sapiens with 10 samples.

Results

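The CDK inhibitors and G1 cyclins are 10 genes at the gate from G1 into S phase: the Cip/Kip inhibitors CDKN1A, CDKN1B and CDKN1C, the INK4 inhibitors CDKN2B and CDKN2C, the D-type cyclins CCND1, CCND2 and CCND3, and the E-type cyclins CCNE1 and CCNE2. They were chosen by name, and each was read from the probe sets that the platform annotation ties to its symbol alone, 21 in all, with the brightest probe set standing for the gene. Of the 10 genes, 9 had such a probe set and passed the filter on low values, among 12342 tested genes of the 19775 with a single-symbol probe set. CDKN2C had no probe set under its symbol in the annotation used here and was not analysed.

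RNA came from LoVo, a human colorectal adenocarcinoma cell line, so all results are from 1 line. The 3 control cultures stayed in DMEM with 10% fetal bovine serum, the 3 serum-starved cultures were held in serum-free medium, and the 4 ADMA cultures were held in serum-free medium with 10 μM asymmetric dimethylarginine (ADMA), an endogenous inhibitor of nitric oxide synthase, with harvest after 96 h. The ADMA group therefore lacks serum as the starved group does, and there was no group with ADMA in serum. The labels call the cultures biological replicates without saying how they were separated, and the p-values measure the spread between these arrays.

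D-type cyclins pair with the kinases CDK4 and CDK6, and E-type cyclins pair with CDK2. Both kinds of complex phosphorylate the retinoblastoma protein, which releases E2F factors to transcribe genes for DNA replication. INK4 proteins bind CDK4 and CDK6 and keep D-type cyclins off them, whereas Cip/Kip proteins bind assembled cyclin-CDK complexes. In intestinal epithelium these genes are known for the balance between dividing crypt cells and differentiated cells.

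On their brightest probe sets all 9 measured genes changed in serum starvation, the 4 inhibitors upward together with CCND1, and CCND2, CCND3, CCNE1 and CCNE2 downward. The rises of CDKN1B and CCND1 did not pass with arrays centred on their medians, and a second CCND1 probe set went the other way (-0.32). The array medians lie at dim signals, so such centring is a limited test of bright genes. With ADMA against serum starvation the 4 inhibitors fell and both E-type cyclins rose, while none of the 3 D-type cyclins passed on its brightest probe set. For CDKN2B and CDKN1C that fall passed on the brightest probe set only. A dimmer CCND2 probe set was called higher with ADMA (0.77), and its other dimmer ones gave -0.17 and 0.39, not called. Rises and falls are differences between groups at the 96 h harvest, not changes followed over time. A gene is said to have risen or fallen where its fold was 1.2 or more and limma's Benjamini-Hochberg adjusted p was below 0.01. In serum starvation this held for 57.6% of all tested genes, 30.3% higher and 27.3% lower, so the number of called genes, 9 of 9, is read against a high background. With ADMA against serum starvation it held for 29.5%, 15.7% higher and 13.8% lower, beside 2 higher and 4 lower of the 9. With ADMA against control it held for 49.8%, 26.6% higher and 23.2% lower, beside 3 higher and 5 lower of the 9. The median log2 difference over the 9 genes was 0.35 in serum starvation, -0.25 with ADMA against serum starvation and -0.33 with ADMA against control, beside 0.07, 0.03 and 0.07 over all tested genes. The comparisons share arrays (serum-starved arrays enter the first and the second), so opposite signs in them are not independent.

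**Figure D1:**
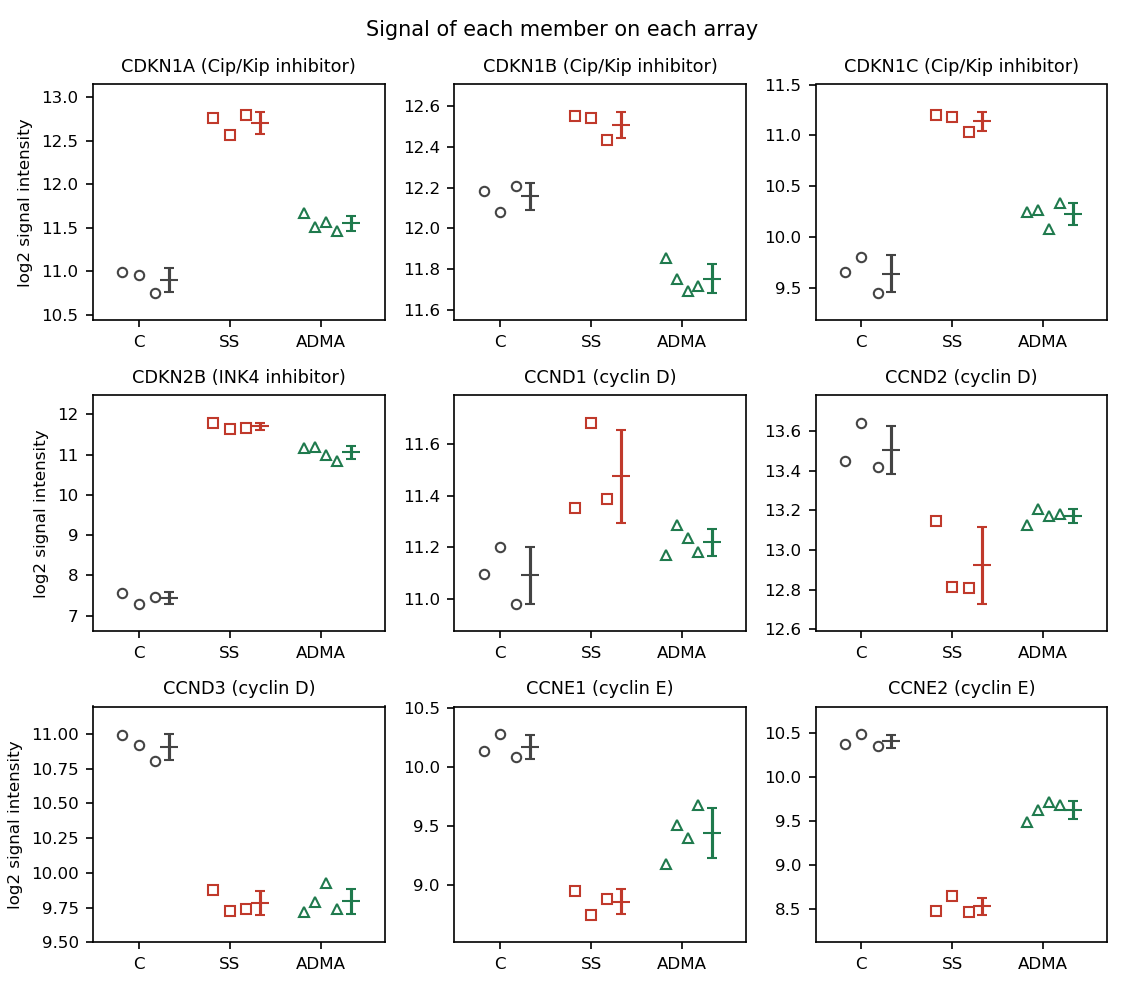
Log2 signal of the brightest probe set of 9 genes on each array, with control as circles, serum-starved as squares and ADMA as triangles, and a bar for the mean ± SD (n = 3, 3 and 4). Axis ranges differ between genes. The CDKN2B points of both serum-free groups stand far above control, CDKN1B with ADMA lies below both other groups, and CCND3 stands at 1 level in both serum-free groups.

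Measures of the whole array moved with the groups in part. Signals had been scaled to 1 trimmed mean (500.1), yet array medians were 60.7 to 73.1 in control, 87.5 to 90.7 in serum starvation and 91.9 to 98.1 with ADMA. Centring the arrays on their medians moved the median log2 difference of all genes to -0.32 in serum starvation, -0.09 with ADMA against serum starvation and -0.44 with ADMA against control, and the share of calls that were higher from 52.6 to 28.0%, from 53.2 to 30.1% and from 53.5 to 16.5%. With the same centring, CDKN1B and CCND1 no longer passed in serum starvation (-0.04 and -0.0085). Quantile normalization left the median log2 difference of all genes nearer 0 than centring did, at -0.05, 0.0028 and -0.06 in the same order. The share of calls that were higher was then 48.8, 52.0 and 48.4%. Of the 3 probe sets for 28S ribosomal RNA, that for the middle read 488 to 566 in control, 1783 to 3023 in serum starvation and 1187 to 1631 with ADMA, and that for the 5' end 501 to 634, 1345 to 2014 and 795 to 1052. The dim one for the 3' end overlapped between groups, at 47.4 to 87.1, 31.6 to 77.2 and 21.1 to 123. The 3'/5' signal ratio of ACTB was 1.01 to 1.08, 1.13 to 1.23 and 1.02 to 1.05, and that of GAPDH overlapped, at 0.857 to 0.931, 0.861 to 0.974 and 0.855 to 0.896. All 11 intestinal epithelial markers were above background on every array, with 5 higher, 3 lower (CDX1, CDX2 and GPA33) and 3 not called in serum starvation. With ADMA against serum starvation 7 were higher, 1 lower and 3 not called. Their summed signal, which weighs the brightest genes most, was 84308 to 85754, 121055 to 140047 and 150367 to 172224 in control, serum-starved and ADMA cells. Of the 7 leukocyte markers with a probe set, PTPRC and CD14 were under background on every array, while the summed signal of the 7 was 638 to 962, 4239 to 4937 and 1656 to 2322, most of it from LYZ, the gene for lysozyme. Fibroblast markers were above background on every array for 1 of 10 (sums of 884 to 1049, 860 to 1009 and 762 to 999.7), endothelial markers for 2 of 8 (550 to 604, 568 to 715 and 532 to 768). Erythroid markers were so for 1 of the 2 with a probe set (202 to 324, 265 to 329 and 210 to 299.9). Their part in the results was not tested. In RNA from whole cultures, fewer cells expressing a gene and less RNA per cell cannot be told apart.

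The promoters below are of 4 genes that differed in response. CDKN2B moved most in starvation, and CDKN1A with ADMA lay between starvation and control. CDKN1B with ADMA was below control, and CCNE1 moved the opposite way to CDKN1A. Promoter windows were used for 6 of the 10 members, and no D-type cyclin is shown. Each promoter is the 250 bases before the gene's start in RefSeq (GRCh38.p14), written 5′ to 3′ on the gene's strand. CDKN2B lies on chr9:22009306-22009555 (minus), CDKN1A on chr6:36678464-36678713 (plus), CDKN1B on chr12:12717118-12717367 (plus) and CCNE1 on chr19:29811741-29811990 (plus). Capitals mark GC boxes, GGGCGG or its reverse complement CCGCCC, the letters that factors of the Sp/KLF family are known to bind.
CDKN2B: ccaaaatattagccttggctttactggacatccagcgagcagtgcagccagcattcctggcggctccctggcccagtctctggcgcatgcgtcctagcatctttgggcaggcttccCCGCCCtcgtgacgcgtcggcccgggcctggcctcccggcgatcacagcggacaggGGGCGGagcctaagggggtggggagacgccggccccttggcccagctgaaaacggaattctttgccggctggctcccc
CDKN1A: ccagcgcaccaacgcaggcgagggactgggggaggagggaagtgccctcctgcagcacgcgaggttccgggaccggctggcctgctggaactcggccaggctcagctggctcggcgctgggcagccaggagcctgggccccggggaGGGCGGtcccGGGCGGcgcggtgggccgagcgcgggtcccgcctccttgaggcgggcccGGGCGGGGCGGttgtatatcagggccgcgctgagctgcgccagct
CDKN1B: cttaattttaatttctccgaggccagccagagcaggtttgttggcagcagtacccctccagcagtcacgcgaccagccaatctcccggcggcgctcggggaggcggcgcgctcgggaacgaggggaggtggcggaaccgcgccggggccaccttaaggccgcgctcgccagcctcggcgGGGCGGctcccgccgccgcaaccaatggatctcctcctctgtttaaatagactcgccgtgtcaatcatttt
CCNE1: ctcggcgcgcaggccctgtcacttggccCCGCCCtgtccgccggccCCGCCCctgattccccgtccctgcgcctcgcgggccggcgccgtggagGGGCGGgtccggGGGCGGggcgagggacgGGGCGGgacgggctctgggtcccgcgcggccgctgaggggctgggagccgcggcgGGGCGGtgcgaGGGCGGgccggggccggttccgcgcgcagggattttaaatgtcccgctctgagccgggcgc

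GC boxes numbered 2 in CDKN2B, 4 in CDKN1A (an adjoining pair sharing 1 base), 1 in CDKN1B and 7 in CCNE1, and such letters occur in 42.6% of the 35116 promoter windows of this length. The windows were rich in G and C, at 66.4% in CDKN2B, 76.4% in CDKN1A, 64.4% in CDKN1B and 81.2% in CCNE1. None of the 4 windows held the E2F letters searched on both strands (TTTCGCGC, TTTGGCGC, TTTCCCGC or TTTGCCGC), which 2.79% of all windows hold, or TATAAA, which 10.7% hold. The CDKN1B window held CCAAT 2 times, at 174 and 50 bases before the start, and 32% of all windows hold it. These matches describe letters, and the arrays hold no measure of binding.

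CDKN2B, the INK4 inhibitor known as a target of TGF-beta signalling, had the largest difference of the 9 genes. Its signal was 189, 156 and 176 in control, 3546, 3194 and 3255 in serum starvation, and 2313, 2354, 2019 and 1849 with ADMA. The 3 groups did not overlap, and every array without serum stood far above every control array. The rise in serum starvation was 4.26 on the log2 scale (standard error 0.10, 95% confidence interval 4.04 to 4.49), or 19.2-fold, with adjusted p = 3.95e-13 by limma, and ranked 16th of 12342 genes by size. With ADMA it was lower than in serum starvation by 1.57-fold (-0.65, standard error 0.10, limma adjusted p = 9.55e-05), and 12.3-fold above control (3.62, limma adjusted p = 1.3e-12). A second, dimmer probe set of CDKN2B was under background on all 3 control arrays (18.9, 21.3 and 42.8) and read 389, 440 and 472 in serum starvation and 382, 367, 381 and 325 with ADMA. Against the background level this is at least 9.14-fold higher in serum starvation and at least 7.67-fold higher with ADMA. The fitted differences on the signals as measured, not these bounds, had limma adjusted p = 1.59e-08 and 2.73e-08. On that probe set ADMA did not pass against serum starvation (-0.25, 95% confidence interval -0.78 to 0.27, limma adjusted p = 0.614). Every ADMA array was still below every serum-starved array on it. The fit shares a spread over the 3 groups, and the control arrays under background varied most (log2 SD 0.64). That SD was 0.14 in serum starvation and 0.11 with ADMA. The call of a lower level with ADMA therefore rests on the brighter probe set. The mean of the pair, which takes in the same control signals, did not pass either (-0.45, limma adjusted p = 0.0249).

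Among the Cip/Kip inhibitors, CDKN1A, the p53 target that binds CDK2 complexes, showed the largest rise. Its signal was 2043, 1989 and 1722 in control, 6918, 6053 and 7123 in serum starvation, and 3247, 2924, 3021 and 2824 with ADMA. The groups did not overlap and ADMA lay between the others. It was 3.49-fold higher in starvation than in control (1.80, standard error 0.08). With ADMA it was 2.23-fold lower than in starvation (-1.16, standard error 0.08, limma adjusted p = 5.92e-08) and 1.57-fold above control (0.65, limma adjusted p = 3.73e-06). That last difference shrank to 0.14 with arrays centred on their medians and no longer passed (limma adjusted p = 0.239).

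CDKN1B, the inhibitor that accumulates in resting cells largely through slower protein breakdown, took another course. Its signal was 4646, 4329 and 4730 in control, 5993, 5957 and 5523 in serum starvation, and 3703, 3448, 3310 and 3362 with ADMA. All 4 ADMA arrays were below every control array, unlike CDKN1A. The rise in starvation was 1.27-fold (0.35, 95% confidence interval 0.22 to 0.49, limma adjusted p = 0.000166), and it turned to -0.04 with median centring and did not pass (limma adjusted p = 0.735). With ADMA the signal was 1.69-fold lower than in serum starvation (-0.75, standard error 0.06, limma adjusted p = 2.67e-07) and 1.32-fold lower than in control (-0.40, limma adjusted p = 3.01e-05). The falls with ADMA kept their call with quantile normalization and with median centring.

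CDKN1C, an imprinted inhibitor linked with differentiation, read 808, 894 and 697 in control, 2361, 2325 and 2094 in serum starvation, and 1213, 1229, 1081 and 1288 with ADMA. The groups did not overlap, and ADMA again lay between the other two. It rose 2.84-fold in starvation (1.5, standard error 0.10, limma adjusted p = 4.15e-09), fell 1.88-fold with ADMA (-0.91, standard error 0.09, limma adjusted p = 2.58e-06), and stayed 1.51-fold above control (0.59, limma adjusted p = 4.96e-05). The last of these was 0.09 with median centring and did not pass (limma adjusted p = 0.533). Its 3 other probe sets above the filter rose in starvation by 0.96, 0.66 and 0.83. Against serum starvation with ADMA they differed by -0.41, -0.26 and -0.52, none of which passed (limma adjusted p = 0.03, 0.292 and 0.0298). The mean over all its probe sets did not pass either (-0.36, limma adjusted p = 0.0729). That mean takes in a probe set below the filter and under background on every array (0.29, standard error 0.59), so it cannot test the brighter ones.

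**Figure D2:**
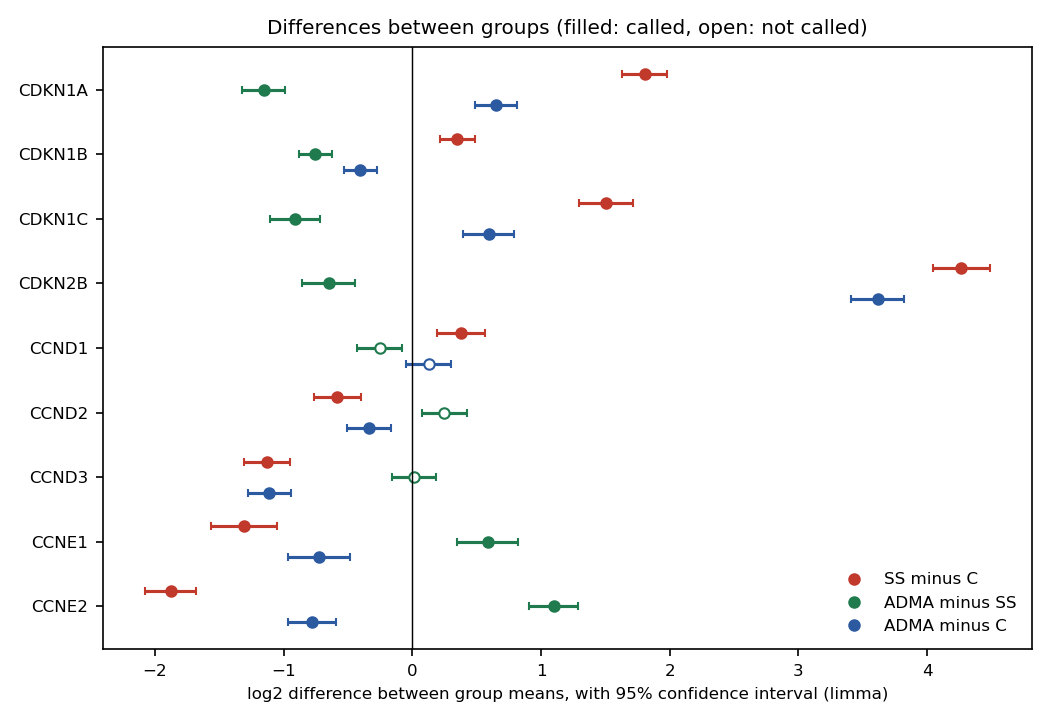
Log2 differences of the 9 genes with 95% confidence intervals (limma, 10 arrays), in serum starvation against control (red), ADMA against serum starvation (green) and ADMA against control (blue), filled where called. The inhibitors lie right of 0 in red and left of 0 in green, and the E-type cyclins the other way round.

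The D-type cyclins did not move as a group. CCND1, the cyclin most tied to growth factor signals, read 2190, 2355 and 2022 in control, 2616, 3283 and 2680 in serum starvation, and 2309, 2498, 2414 and 2325 with ADMA. Every serum-starved array was above every control array, by 1.30-fold on average (0.38, 95% confidence interval 0.20 to 0.57, limma adjusted p = 0.00121). Its difference with ADMA against serum starvation was -0.25 (95% confidence interval -0.43 to -0.08, limma adjusted p = 0.0197) and against control 0.13 (-0.05 to 0.30, limma adjusted p = 0.188), and neither passed. The direction depended on the probe set: the other one read 865, 606 and 785, then 539, 603 and 645, then 632, 724, 584 and 562, with a starvation difference of -0.32 (limma adjusted p = 0.0867). The rise of CCND1 therefore rests on 1 of its 2 probe sets.

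CCND2, another partner of CDK4 and CDK6, was lower in starvation. Its brightest probe set read 11201, 12798 and 10969 in control, 9080, 7190 and 7162 in serum starvation, and 8941, 9456, 9236 and 9305 with ADMA. Serum-starved replicate 1 stood apart from the other two and within the range of the ADMA arrays. The fall in starvation was 1.5-fold (-0.58, standard error 0.09, limma adjusted p = 2.37e-05), and the 2 next brightest probe sets fell by 1.52 and 1.70 on the log2 scale, while the dimmest gave -0.30 (limma adjusted p = 0.202). ADMA differed from serum starvation by 0.25 (95% confidence interval 0.08 to 0.42, limma adjusted p = 0.0199), which passed without serum-starved replicate 1 (0.36, limma adjusted p = 0.000908). The other probe sets went both ways in that comparison, -0.17 (limma adjusted p = 0.226), 0.77 (limma adjusted p = 0.000195) and 0.39 (limma adjusted p = 0.111). CCND2 with ADMA was 1.26-fold below control (-0.33, limma adjusted p = 0.00212), but not past the threshold without control replicate 2 (-0.26, limma adjusted p = 0.0179) or with quantile normalization (-0.27, limma adjusted p = 0.0112). The next 2 probe sets were lower than control by more, at -1.69 (limma adjusted p = 2e-09) and -0.94 (limma adjusted p = 8.36e-06), and the dimmest gave 0.10 (limma adjusted p = 0.691).

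CCND3, the most widely expressed of the D-type cyclins, read 2038, 1939 and 1791 in control, 942, 846 and 854 in serum starvation, and 844, 886, 971 and 857 with ADMA. Both serum-free groups lay below control and overlapped each other. It fell 2.18-fold in starvation (-1.13, standard error 0.08, limma adjusted p = 1.76e-08) and was 2.16-fold below control with ADMA (-1.11, limma adjusted p = 1.84e-08). Its other probe set lies below the filter and was under background on all 3 control, 2 of the 3 serum-starved and all 4 ADMA arrays. Averaged with it, neither difference passed (-0.11 and -0.47, limma adjusted p = 0.852 and 0.363), but such an average cannot test the brighter probe set. On the brighter one ADMA differed from serum starvation by 0.01 (95% confidence interval -0.15 to 0.18, limma adjusted p = 0.904). That interval leaves room for a change of at most 1.13-fold either way on this probe set.

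**Figure D3:**
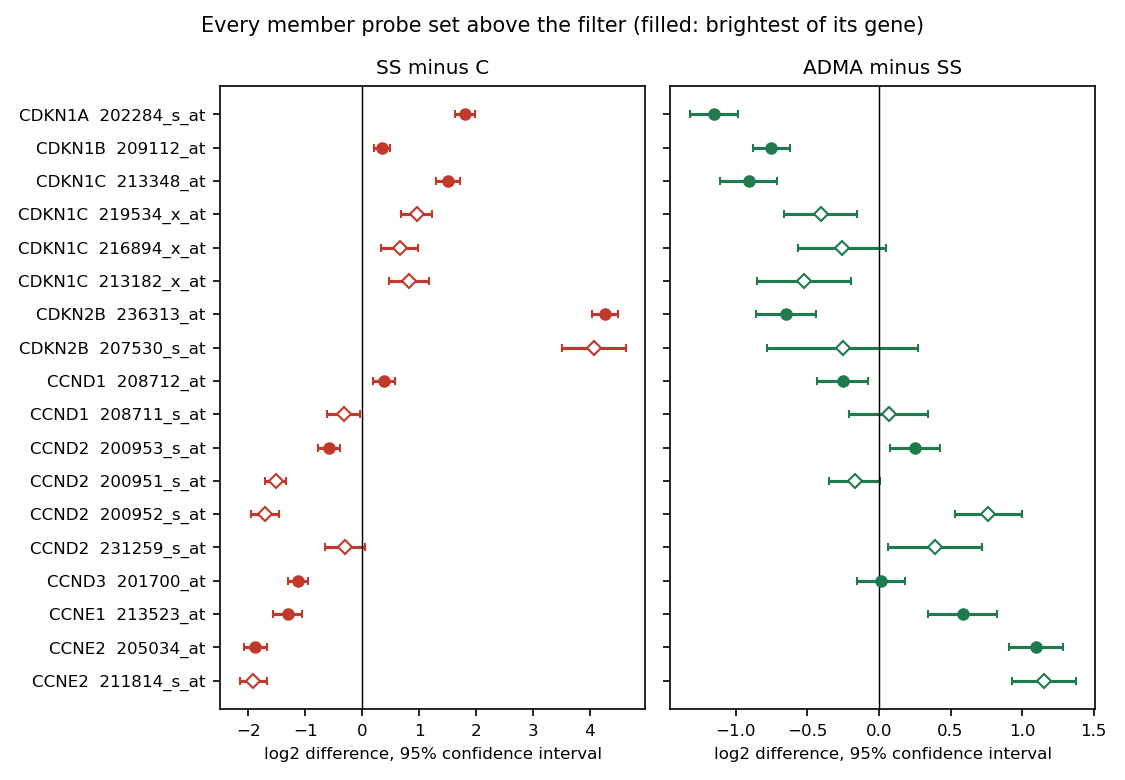
Log2 differences with 95% confidence intervals of the 18 probe sets above the filter, in serum starvation against control (left) and ADMA against serum starvation (right), with filled circles for the brightest probe set of a gene and open diamonds for the others. The CCND1 probe sets lie on opposite sides of 0 on the left, those of CCND2 on both sides on the right, and the open CDKN2B diamond on the left is fitted to control signals under background.

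The E-type cyclins, which activate CDK2 at entry into S phase, were lower in starvation than in control and higher with ADMA than in starvation. CCNE1 read 1123, 1244 and 1085 in control, 495, 429 and 471 in serum starvation, and 578, 730, 676 and 821 with ADMA. CCNE2 read 1332, 1444 and 1313, then 356, 402 and 356, then 719, 791, 846 and 824. In both genes the groups did not overlap, with ADMA between control and serum starvation.

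CCNE1 fell 2.48-fold in starvation (-1.31, standard error 0.12, limma adjusted p = 1.65e-07) and was 1.5-fold higher with ADMA than in serum starvation (0.58, standard error 0.11, limma adjusted p = 0.000719). CCNE2 fell 3.67-fold (-1.88, standard error 0.09, limma adjusted p = 2.69e-10) and was 2.14-fold higher with ADMA (1.10, standard error 0.09, limma adjusted p = 2.99e-07). Against control both stayed lower with ADMA, CCNE1 by 1.65-fold (-0.72, limma adjusted p = 5.2e-05) and CCNE2 by 1.72-fold (-0.78, limma adjusted p = 2.1e-06). The other CCNE1 probe set lies below the filter and was under background on all 3 control, all 3 serum-starved and 3 of the 4 ADMA arrays. Averaged with it, CCNE1 passed in no comparison (-1.01 in starvation, 0.34 with ADMA and -0.67 against control, limma adjusted p = 0.0803, 0.61 and 0.214). Such an average cannot test the brighter probe set. A second CCNE2 probe set gave -1.91 in starvation and 1.15 with ADMA, close to the first.

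Ratios of paired genes within each array, which scaling by a constant cannot move, are given as a description of these arrays. Each gene is read from its brightest probe set, and the other CCND1 probe set went down in starvation (-0.32). The log2 ratio of CDKN1A to CDKN1B was -1.19, -1.12 and -1.46 in control, 0.21, 0.02 and 0.37 in serum starvation, and -0.19, -0.24, -0.13 and -0.25 with ADMA. It did not overlap between neighbouring groups, and was 2.74-fold higher in starvation and 1.32-fold lower with ADMA. CDKN1A to CDKN1C moved less, by 0.30 in starvation and -0.24 with ADMA, the latter with overlapping groups. CCND1 to CCND3 was 2.84-fold higher in starvation with no overlap and differed by -0.27 on the log2 scale with ADMA, with overlap. CCND1 to CCND2 was 1.95-fold higher in starvation and 1.42-fold lower with ADMA than in starvation, with no overlap. CCNE1 to CCNE2 was 1.48-fold higher in starvation and 1.43-fold lower with ADMA, with no overlap. Exact two-sided permutation tests gave p = 0.1 for all 5 ratios in starvation, the smallest that 3 arrays against 3 allow. With ADMA the exact permutation p was 0.0286, the smallest for 4 against 3, for 3 ratios, 0.0571 for CCND1 to CCND3 and 0.143 for CDKN1A to CDKN1C. Over these 10 tests the adjusted p was 0.0952 to 0.143, so none passed, nor could any at these sizes.

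**Figure D4:**
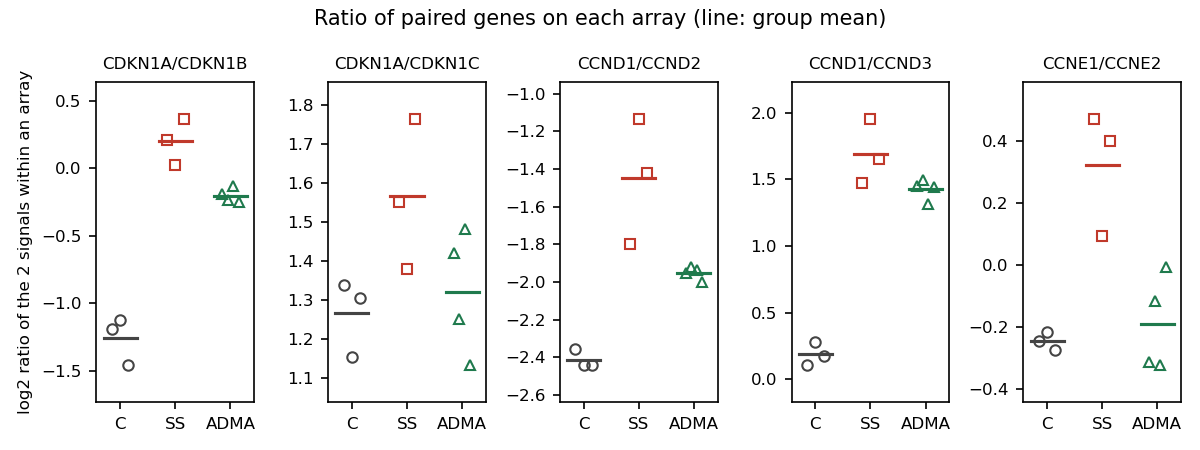
Log2 ratio of 5 pairs of genes within each array, with control as circles, serum-starved as squares and ADMA as triangles. The CDKN1A to CDKN1B ratio of the ADMA arrays lies between the other groups, and the CCNE1 to CCNE2 ratio of the ADMA arrays lies near control.

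Among the kinases these proteins act on, CDK4 fell by 1.39 (standard error 0.06) and CDK2 by 1.22 (0.08) in starvation, and both rose with ADMA, by 0.70 and 0.52. CDK6 rose by 0.34 in starvation (limma adjusted p = 0.000634), which turned to -0.05 with median centring, and fell by 0.29 with ADMA. CDC25A, the phosphatase that activates CDK2, fell by 2.72 (0.38) in starvation, and differed by 1.01 with ADMA (limma adjusted p = 0.0325). Its serum-starved signals ran from 45.4 to 175 (log2 SD 1.08), the lowest near the background levels of those arrays (41.4 to 57.3), so the size of these differences is uncertain. CDK7, the kinase that activates other CDKs, rose by 0.85 in starvation, fell by 0.56 with ADMA and was called 0.30 above control with ADMA, which turned to -0.21 with median centring. Of the 8 tested kinases and activators, 2 rose, 5 fell and 1 did not pass in starvation, and 2 rose, 2 fell and 4 did not pass with ADMA (medians -0.76 and 0.33).

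Among genes for turnover and partners of the inhibitors, SKP2, whose ubiquitin ligase marks CDKN1B for breakdown, fell by 2.24 (0.12) in starvation and rose by 1.03 (0.11) with ADMA. DTL, part of a ligase that acts on CDKN1A, fell by 1.69 and rose by 0.84. Of these 16 genes 1 rose, 8 fell and 7 did not pass in starvation, and 5 rose, 1 fell and 10 did not pass with ADMA (medians -0.24 and 0.18). Of 13 pocket protein and E2F genes, 1 rose, 8 fell and 4 did not pass in starvation, led by the repressor E2F8 (-3.10) and E2F2 (-1.65). With ADMA 5 rose, 3 fell and 5 did not pass, led by E2F8 (1.21) and TFDP2 (1.04), a partner of E2F proteins (medians -0.80 and 0.30).

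Cyclins of the later phases included CCNB1 (-2.95 in starvation, 1.19 with ADMA) and CCNA2 (-2.41, 1.03), which drive mitosis and S phase. Of 14 other cyclins tested, a list not limited to those phases, 7 rose, 4 fell and 3 did not pass in starvation. With ADMA 4 rose, 2 fell and 8 did not pass (medians 0.21 in starvation and -0.02 with ADMA). The 4 that fell in starvation were CCNA2, CCNB1, CCNB2 (-1.41) and CCNF (-1.74), and the same 4 rose with ADMA. Those that rose in starvation were CCNG2, CCNI, CCNK, CCNL1, CCNL2, CCNT1 and CCNT2. Among 7 other CDK inhibitors and related genes 1 rose, 3 fell and 3 did not pass in starvation, and 2 rose, 3 fell and 2 did not pass with ADMA (medians -0.35 and 0.22). CDKN2D, an INK4 gene, rose by 0.84 and fell by 0.78, and CDKN3, a phosphatase that acts on CDK2 and is high in dividing cells, fell by 1.33 and rose by 0.72. CDKN2A, another INK4 gene, named after its values were seen, gave -0.35 in starvation (limma adjusted p = 0.0133, but called at -0.47 with quantile normalization and -0.74 with median centring) and rose by 0.63 with ADMA (limma adjusted p = 0.000285). Of 20 tested transcription regulators of the 10 genes, 11 rose, 3 fell and 6 did not pass in starvation (median 0.49), led by ATF3 (2.39), a stress-response factor, and FOXO3 (1.97), known to act on CDKN1B. With ADMA 3 rose, 7 fell and 10 did not pass (median -0.15), led by ATF3 (-1.55) and FOXO1 (-1.01).

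**Figure D5:**
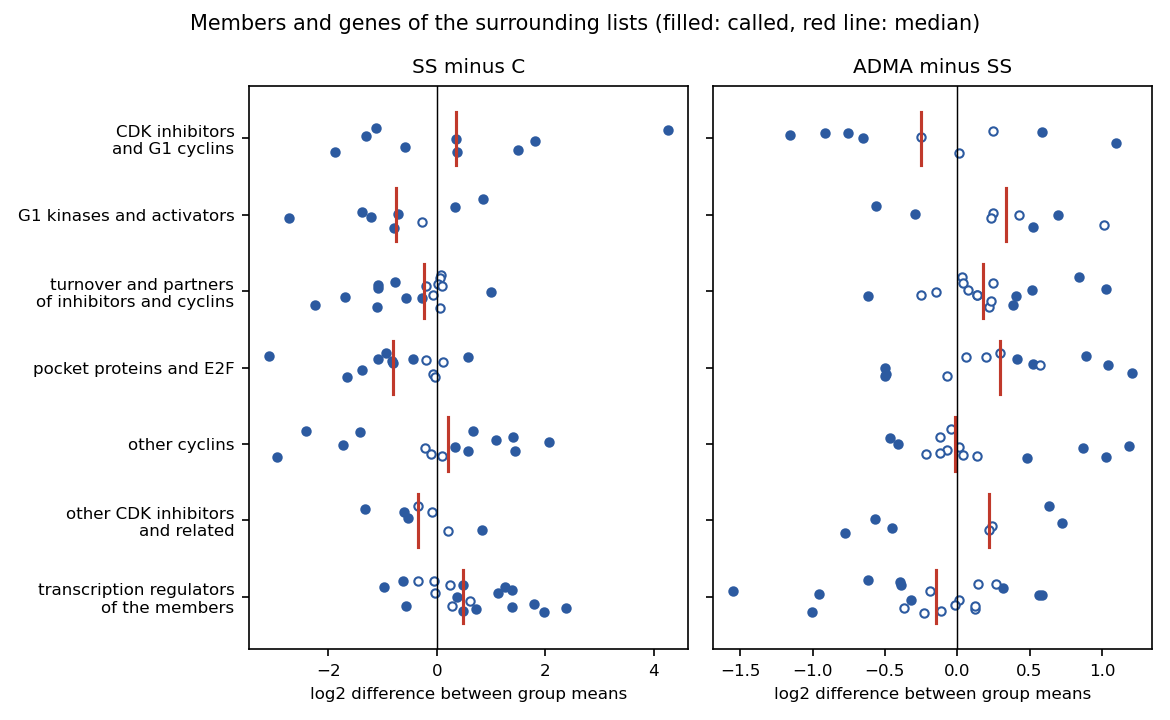
Log2 differences of the 9 genes and of 6 lists around them, in serum starvation against control and ADMA against serum starvation, with a point for each tested gene (filled where called) and a red line for the median. The E2F list, the kinases, the turnover list and the other CDK inhibitors have medians below 0 in starvation and above 0 with ADMA.

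The tested genes whose pair of differences (starvation, then ADMA) lay nearest to that of CDKN2B by Euclidean distance were ATXN1 (3.91 and -0.76, distance 0.368), DSG4 (3.86 and -0.61, distance 0.402) and S100A3 (4.29 and -1.12, distance 0.477). ATXN1 was under background on 1 control array and S100A3 on all 3, where a fitted difference gives no bound, and the ADMA difference of S100A3 did not pass (limma adjusted p = 0.013). Nearest to CCNE2, which had the largest starvation difference of the 5 G1 cyclins, were PI3 (-1.86 and 1.12, distance 0.0275), RTN4IP1 (-1.92 and 1.09, distance 0.0468) and NCAPD2 (-1.85 and 1.04, distance 0.0663). These distances rest on 2 differences over 10 arrays.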

How the data were processed

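Total RNA of 10 LoVo cultures (3 control, 3 serum-starved, 4 ADMA) was hybridised to Affymetrix HG-U133 Plus 2.0 arrays. The authors made the deposited intensity values with MAS 5.0, 1 per probe set on a linear scale. Of 54675 probe sets, 62 were controls, 41091 carried 1 gene symbol, 1801 several and 11721 none in the platform annotation, and symbols were checked against RefSeq. Log2 intensities were used with no pseudocount, the brightest single-symbol probe set stood for a gene, and a gene was tested if its mean reached the median over probe sets (76.3). Groups were fitted by limma 3.58.1 under R 4.3.3, in 1 trended model over 10 arrays, with Benjamini-Hochberg adjustment over 12342 genes, at the thresholds of the study's SAM analysis, which limma replaced. Differences between probe sets came from a fit on all probe sets. The background level of an array was the 95th percentile of its 27 Bacillus control probe sets (35.0 to 70.2). The number of arrays limits the precision. Pair ratios were tested by exact permutation. The steps were tested on simulated data.

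The members and lists were chosen with earlier results of these data known. Named genes are the members, the 2 called genes with the largest change in each list and comparison, CDK2, CDK4 and CDK6, and the 3 genes nearest to 1 inhibitor and 1 cyclin. PTPRC, CD14, LYZ, CDX1, CDX2, GPA33, CDKN2A and the other cyclins besides CCNA2 and CCNB1 were named after their values were seen. So were CDK7 and CDC25A in their other comparisons. Alternatives were quantile normalization, median centring, other filters, a pseudocount of 16, signals under background raised to it, probe sets averaged within genes, limma without the trend or on other features or arrays, the replicate block, leaving out each array, and, chosen after seeing the data, the next brightest probe set. No arrays held identical values (highest correlation within a group 0.946). Metabolite and PCR data were not analysed here. Plots used matplotlib 3.10.9 under Python 3.11.15.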

Additional observations from a re-analysis of the deposited data

How the results depend on the processing

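With the arrays centred on their medians, 3 members in place of 5 were higher in serum starvation and 1 in place of 3 with ADMA against control. Over all 12342 tested genes the higher calls fell likewise, from 3738 to 2014 and from 3284 to 1209. The lower calls rose from 3372 to 5184 and from 2859 to 6101. The array medians lie at dim signals, so this centring is a limited test of brighter genes. Some differences of members turned with the centring: CDKN1B -0.039 and CCND1 -0.0085 in starvation, and CCND3 -0.10 with ADMA against serum starvation. CCND1 turned to -0.38 with ADMA against control (limma adjusted p = 0.00411, lower). With probe sets averaged within genes, 2 members in place of 4 were lower in starvation, 2 in place of 4 with ADMA against serum starvation and 3 in place of 5 with ADMA against control. Calls over all genes were not counted with this averaging. The averaging also turned CCND3 to -0.36 with ADMA against serum starvation, CCND1 to -0.065 with ADMA against control, and the CCND1 to CCND3 ratio to 0.27 with ADMA. It took the call from CCND3 (-0.11) and CCNE1 (-1.01) in starvation. CCND1 also lost its starvation call, as its probe sets, both above the filter, gave 0.38 and -0.32. For CCND3, CCNE1 and CDKN1C the averaging takes in a probe set below the filter and under background on most or all arrays. The next brightest probe set turned CCND1 to -0.32 in starvation, 0.068 with ADMA and -0.26 with ADMA against control, and CCND2 to -0.17 with ADMA. The cause of these changes was not tested. Leaving out 1 array at a time changed no count of members by over 1.5 times; CCND3 with ADMA against serum starvation ranged from -0.029 to 0.063. Replicate numbers are shared between groups, but deviations of same-numbered arrays correlated at -0.07 to 0.10, so they were not taken as pairs; with the replicate block the counts of members were 5 and 4, 2 and 4, and 3 and 5, as without it, and the calls of all genes with ADMA against serum starvation were 1644 higher and 1439 lower. The other alternatives changed no count of members by over 1.5 times. Signals near background, such as the second probe set of CDKN2B in control, give only bounds.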
